A study of Homo sapiens with 8 samples.

Results

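The dual-specificity MAP kinase phosphatases are the enzymes that switch MAP kinases off. The group described here holds 10 genes, DUSP1, DUSP2, DUSP4, DUSP5, DUSP6, DUSP7, DUSP8, DUSP10, DUSP14 and DUSP16, taken as every probe set of the array whose platform annotation gives 1 of these symbols. They were measured by 25 probe sets, out of 45253 probe sets with a single gene symbol, and make up 10 of the 18239 genes of the array. NS-SV-AC cells, labelled by the submitters as acinar cells of the human salivary gland and kept as an immortalised line, received TNF-α at 20 ng/ml or bovine serum albumin (BSA) as the control protein, and RNA was taken at 2, 6, 12 and 24 h. There were 4 TNF-α arrays and 4 BSA arrays, 1 for each treatment and time, so no time had a replicate. Levels are log2 values made with RMA, and differences are TNF-α minus BSA unless a later time is set against 2 h of the same arm.

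MAP kinases (ERK, JNK and p38) become active when a kinase phosphorylates a threonine and a tyrosine in their activation loop, and the phosphatases of this family remove those phosphates again. Several of the genes are themselves transcribed in response to MAP kinase activity, so that they close a negative feedback loop, and TNF-α is a textbook activator of JNK, p38 and ERK. DUSP1, DUSP2, DUSP4 and DUSP5 encode inducible nuclear enzymes, DUSP6 and DUSP7 cytoplasmic enzymes that prefer ERK, and DUSP8, DUSP10 and DUSP16 enzymes that prefer JNK and p38. DUSP14 encodes a small enzyme that lacks the MAP kinase binding domain of the others.

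The TNF-α array at 24 h stood apart from the other 7. On it the 3′ probe set of GAPDH read 6.28 above the 5′ probe set, against 0.20 to 0.37 on the other 7 arrays, and its mean correlation with the other arrays across genes was 0.925, against 0.968 to 0.978. Over all genes, TNF-α minus BSA had a median of 0.20 at 24 h and of −0.02, −0.01 and −0.004 at the 3 earlier times. The TNF-α difference and the factor of time were therefore each tested over the 4 times and over 2, 6 and 12 h. The main fits of a slope over time use all 8 arrays, this one included. Of the acinar cell markers looked up, 9 were measured, and 1 (the ion transporter SLC12A2) was in the upper quartile of its array on all 8 arrays, while 5 were under the array median on all 8. Of 6 fibroblast markers 3 (COL3A1, DCN and LUM) were in the upper quartile on all 8 arrays and 2 (COL1A1 and COL1A2) under the median on all 8. Of 8 duct and basal epithelium markers 1 (KRT18) was in the upper quartile and 5 under the median on all 8, and no list was high throughout. Summed over the 6 fibroblast markers, the level was 9.90 to 10.73 in TNF-α and 9.89 to 10.31 in BSA. Over the 8 duct and basal epithelium markers it was 8.13 to 10.27 in TNF-α and 9.97 to 10.43 in BSA. KRT18 read 7.36 on the TNF-α array at 24 h and 9.84 in BSA at that time. The part of these levels in the results was not tested.

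For most members TNF-α and BSA differed by under 2-fold at each time, and the widest changes with time were those of DUSP5 and DUSP6. DUSP5 and DUSP6 were high at 2 h, low at 6 and 12 h and high again at 24 h in both arms. DUSP1, by its brightest probe set, was flat in TNF-α and lower at 6, 12 and 24 h than at 2 h in BSA. By the brightest probe set, DUSP5, DUSP8, DUSP10, DUSP14 and DUSP16 read above BSA in TNF-α at each of 2, 6 and 12 h. DUSP4 and DUSP7 read below it at each of them. None of the 10 passed an adjusted p of 0.05 for the TNF-α difference, either over the 4 times or from 2 to 12 h. At single times 0 of 10 members were at least 2-fold higher and 0 at least 2-fold lower at 2 h (0.493% and 0.0439% of all genes). At 6 h 0 were higher and 1, DUSP4, was lower (1.38% and 0.384% of all genes). At 12 h 1, DUSP1, was higher and 0 were lower (1.29% and 0.839%), and at 24 h 0 were higher and 0 lower (6.1% and 6.67%). The members' median difference was 0.23, 0.17, 0.38 and 0.35 at 2, 6, 12 and 24 h, against −0.02, −0.01, −0.004 and 0.20 over all genes.

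**Figure D1:**
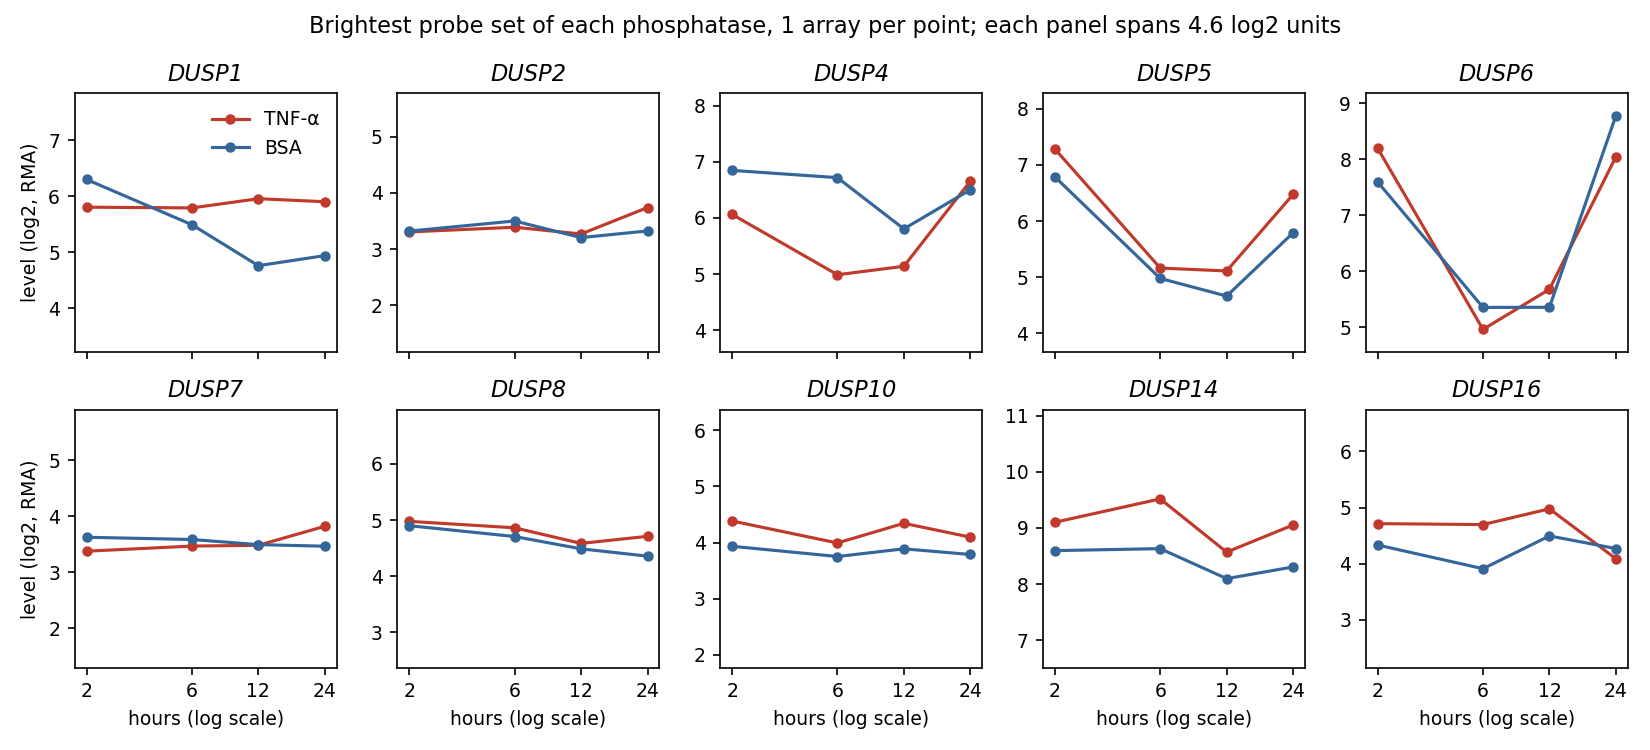
Level (log2, RMA) of the brightest probe set of each of the 10 phosphatases at 2, 6, 12 and 24 h (log scale), TNF-α in red and BSA in blue, 1 array per point with no error bars because no time had a replicate. DUSP5 and DUSP6 dip at 6 and 12 h in both arms, DUSP1 is lower in TNF-α at 2 h and higher from 6 h on, and DUSP4 is lower in TNF-α at 2, 6 and 12 h.

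DUSP6, whose product removes phosphate from ERK in the cytoplasm, had the widest range of the group. Its brightest probe set (11741980_a_at) read 8.19, 4.97, 5.68 and 8.04 at 2, 6, 12 and 24 h in TNF-α, and 7.59, 5.36, 5.36 and 8.77 in BSA. The 2 h and 24 h arrays of either arm lay above all 6 h and 12 h arrays, and the TNF-α and BSA values overlapped. In TNF-α the change since 2 h was −3.23 at 6 h, −2.51 at 12 h and −0.15 at 24 h. In BSA it was −2.23 at 6 h, −2.23 at 12 h and 1.18 at 24 h. All 4 probe sets of the gene showed the low values at 6 and 12 h: the change from 2 h to 6 h lay between −3.28 and −2.85 in TNF-α and between −2.50 and −1.70 in BSA. TNF-α against BSA gave a mean difference of 0.18 from 2 to 12 h, with a 95% interval from −0.29 to 0.64 (limma adjusted p = 0.726), and −0.05 over the 4 times (−0.67 to 0.57, adjusted p = 0.944). All 4 probe sets were higher in TNF-α at 2 h, by 0.38 to 0.60, and lower at 6 h, by values between −0.56 and −0.33.

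The probe sets of DUSP6 disagreed on the TNF-α array at 24 h. There 11744618_a_at read 9.66 in TNF-α against 8.08 in BSA, a difference of 1.58. The other 3 read 8.04, 7.76 and 6.91 in TNF-α against 8.77, 8.60 and 7.82 in BSA, differences of −0.73, −0.84 and −0.91. The range of the difference between the 4 probe sets was thus 2.49 at 24 h, against 0.22, 0.23 and 0.42 at 2, 6 and 12 h. Over the 3857 genes with at least 4 probe sets, the median of this range was 1.14 at 24 h and 0.26, 0.35 and 0.37 at the earlier times. No direction for DUSP6 at 24 h is given for this reason, and the part of the wide GAPDH gap of that array in it was not tested.

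**Figure D2:**
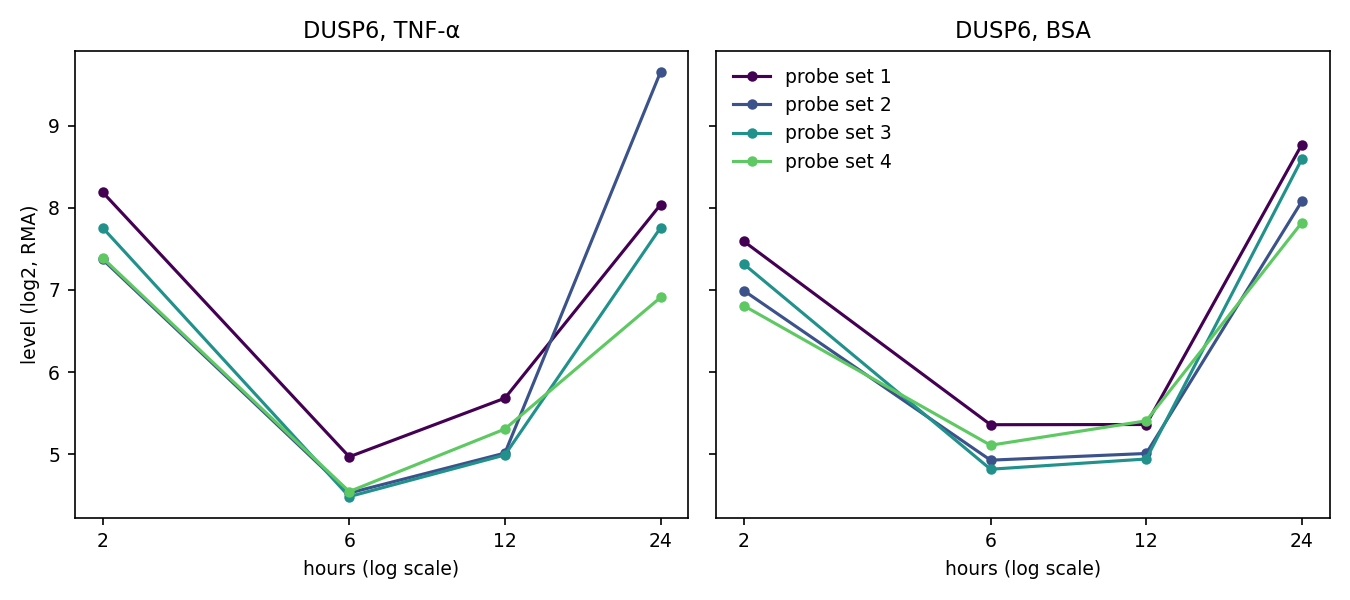
Level (log2, RMA) of the 4 probe sets of DUSP6, numbered by mean level, at 2, 6, 12 and 24 h (log scale) in TNF-α (left) and BSA (right), 1 array per point. All 4 are lower at 6 and 12 h than at 2 h in both arms, and at 24 h in TNF-α they spread from 6.91 to 9.66.

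DUSP5, a nuclear phosphatase of ERK, had a single probe set (11717863_a_at) with a time course of the same shape. It read 7.28, 5.16, 5.11 and 6.47 in TNF-α and 6.79, 4.98, 4.66 and 5.79 in BSA at 2, 6, 12 and 24 h. TNF-α was above BSA at each of the 4 times, by 0.50, 0.18, 0.45 and 0.68, while the change since 2 h was far wider: −2.12, −2.17 and −0.81 in TNF-α and −1.81, −2.12 and −0.997 in BSA. The mean TNF-α difference was 0.38 ± 0.09 from 2 to 12 h (SE, 3 pairs of arrays; 95% interval 0.15 to 0.60; adjusted p = 0.217) and 0.45 ± 0.11 over the 4 times (adjusted p = 0.599).

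A test of the time factor, which averages both arms, was chosen after the dip of DUSP5 and DUSP6 was seen and is no independent support for it. It passed for 2 of the 10 members, DUSP5 and DUSP6. With limma the adjusted p was 0.0223 for DUSP5 and 0.0280 for DUSP6 on the 6 arrays from 2 to 12 h, where 2.83% of all genes passed. On all 8 arrays it was 0.0457 and 0.0486, where 1.5% passed. Averaged over both arms in the fit from 2 to 12 h, DUSP5 was lower than at 2 h by values of −1.96 ± 0.11 at 6 h and −2.15 ± 0.11 at 12 h (SE), and DUSP6 by −2.73 ± 0.23 and −2.37 ± 0.23. Both calls were lost on the 8 arrays when they were quantile normalised again (adjusted p = 0.0571 for each) and when every probe set was tested on its own (0.0634 and 0.0660). They were also lost there without the 2 h, 6 h or 12 h pair, with adjusted p from 0.0878 to 0.185. On the arrays from 2 to 12 h they were lost without the 2 h pair (0.493 for DUSP5 and 0.286 for DUSP6) and without the 6 h pair (0.0924 for each).

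DUSP4, a nuclear phosphatase of ERK and JNK with 1 probe set (11744162_a_at), was the only member lower in TNF-α by 2-fold at any time. It read 6.06, 4.99, 5.14 and 6.66 in TNF-α and 6.85, 6.72, 5.81 and 6.50 in BSA at 2, 6, 12 and 24 h. The differences were −0.78, −1.73, −0.67 and 0.15, so at 6 h TNF-α was at 0.301 of the BSA level. At 2, 6 and 12 h TNF-α was the lower of each pair, and at 24 h the arms were close. The mean difference was −1.06 ± 0.21 from 2 to 12 h (SE, 3 pairs, lower in 3 of 3; 95% interval −1.58 to −0.54), which did not pass with an adjusted p of 0.182. Over the 4 times it was −0.76 ± 0.30 (adjusted p = 0.652), and −0.43 without the 6 h pair. DUSP4 also moved within each arm: at 12 h it was −0.92 against 2 h in TNF-α and −1.04 in BSA.

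DUSP1 is the immediate early phosphatase of p38, JNK and ERK. Its brightest probe set (11715766_a_at) read 5.80, 5.79, 5.96 and 5.90 in TNF-α, close to level over time. In BSA the same probe set read 6.30, 5.49, 4.76 and 4.94. TNF-α was therefore the lower arm at 2 h and the higher arm at 6, 12 and 24 h, with differences of −0.49, 0.30, 1.19 and 0.96. At 12 h the TNF-α level was 2.29 times that of BSA. The fitted slope per doubling of time was 0.04 in TNF-α and −0.42 in BSA. The difference of the slopes was 0.46 ± 0.11 (SE, 8 arrays), with an unadjusted p of 0.00702 and an adjusted p of 0.827, so it did not pass. The other 3 probe sets gave 0.066, 0.18 and −0.044, and the mean of the probe sets 0.16. The 3 dimmer probe sets of DUSP1 gave differences at 12 h of 0.52, 0.15 and −0.16, and the mean of its probe sets was under 2-fold there. The mean difference of the brightest was 0.33 from 2 to 12 h (95% interval −0.40 to 1.07, adjusted p = 0.665).

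DUSP2, a nuclear phosphatase best known from immune cells, and DUSP7, a cytoplasmic phosphatase of ERK, had 1 probe set each and lay under the array median on all 8 arrays. DUSP2 ranged from 3.27 to 3.74 in TNF-α and from 3.20 to 3.50 in BSA, and DUSP7 from 3.38 to 3.82 in TNF-α and from 3.47 to 3.62 in BSA. The arms overlapped for both genes. The TNF-α difference from 2 to 12 h was −0.02 for DUSP2 (95% interval −0.21 to 0.17) and −0.13 for DUSP7 (−0.32 to 0.07).

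DUSP14 had the largest positive mean TNF-α difference of the group in both fits. Its brightest probe set (11740032_s_at) read 9.10, 9.52, 8.57 and 9.05 in TNF-α and 8.60, 8.63, 8.10 and 8.31 in BSA at 2, 6, 12 and 24 h. TNF-α was higher in each of the 4 pairs, by 0.51, 0.89, 0.47 and 0.75. The other 2 probe sets gave nearly the same differences at the first 3 times, 0.49, 0.92 and 0.47 for 1 of them and 0.61, 0.90 and 0.41 for the other. At 24 h they gave −0.06 and −0.20, apart from the 0.75 of the brightest. The mean difference was 0.62 ± 0.10 from 2 to 12 h (SE, 3 pairs; 95% interval 0.36 to 0.88; ratio 1.54), with an unadjusted p of 0.00124 and an adjusted p of 0.137. Over the 4 times it was 0.65 ± 0.10 (adjusted p = 0.387).

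The phosphatases of JNK and p38 are DUSP16, DUSP10 and DUSP8. DUSP16 (11764149_s_at) read 4.71, 4.70, 4.98 and 4.09 in TNF-α and 4.33, 3.91, 4.49 and 4.27 in BSA, higher in TNF-α in the first 3 pairs and lower at 24 h. The other 2 probe sets of DUSP16 were higher in TNF-α at 24 h, by 0.40 and 0.14, and 11752504_a_at gave −0.10 at 2 h. The mean difference of the brightest from 2 to 12 h was 0.55 ± 0.10 (SE, 3 pairs; adjusted p = 0.158). The other 2 probe sets gave 0.11 and 0.19 and the mean of the probe sets 0.29. DUSP10 (11729170_x_at) read 4.38, 3.99, 4.34 and 4.10 in TNF-α and 3.93, 3.75, 3.89 and 3.79 in BSA. By brightest probe set it was the only member whose arms did not overlap: all TNF-α values lay above all BSA values, as they did for 3.58% of all genes. By that measure 0 members had all TNF-α values below (1.09% of all genes). The brightest probe set of DUSP10 was above the array median on 1 of the 8 arrays. The mean difference was 0.36 ± 0.08 over the 4 times (SE, 4 pairs; adjusted p = 0.569) and 0.38 ± 0.08 from 2 to 12 h (adjusted p = 0.192). Of the 4 probe sets of DUSP10, 3 were higher in TNF-α at all 4 times and the other was higher at 3 of them. For 11731303_a_at the arms overlapped, with 3.78 in TNF-α at 24 h and 3.98 in BSA at 12 h. They overlapped for 11751237_a_at too, with 3.24 in TNF-α at 24 h and 3.38 in BSA at 6 h, and did not for 11729169_a_at. DUSP8 (11755931_a_at) read 4.98, 4.86, 4.58 and 4.71 in TNF-α and 4.90, 4.71, 4.49 and 4.36 in BSA, with a mean difference of 0.11 from 2 to 12 h (95% interval −0.06 to 0.28). Its probe set 11758143_s_at differed by 0.47, 0.13, −0.10 and 0.98 at 2, 6, 12 and 24 h. For 11758684_x_at the differences were 0.30, 0.23, 0.05 and 0.51.

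**Figure D3:**
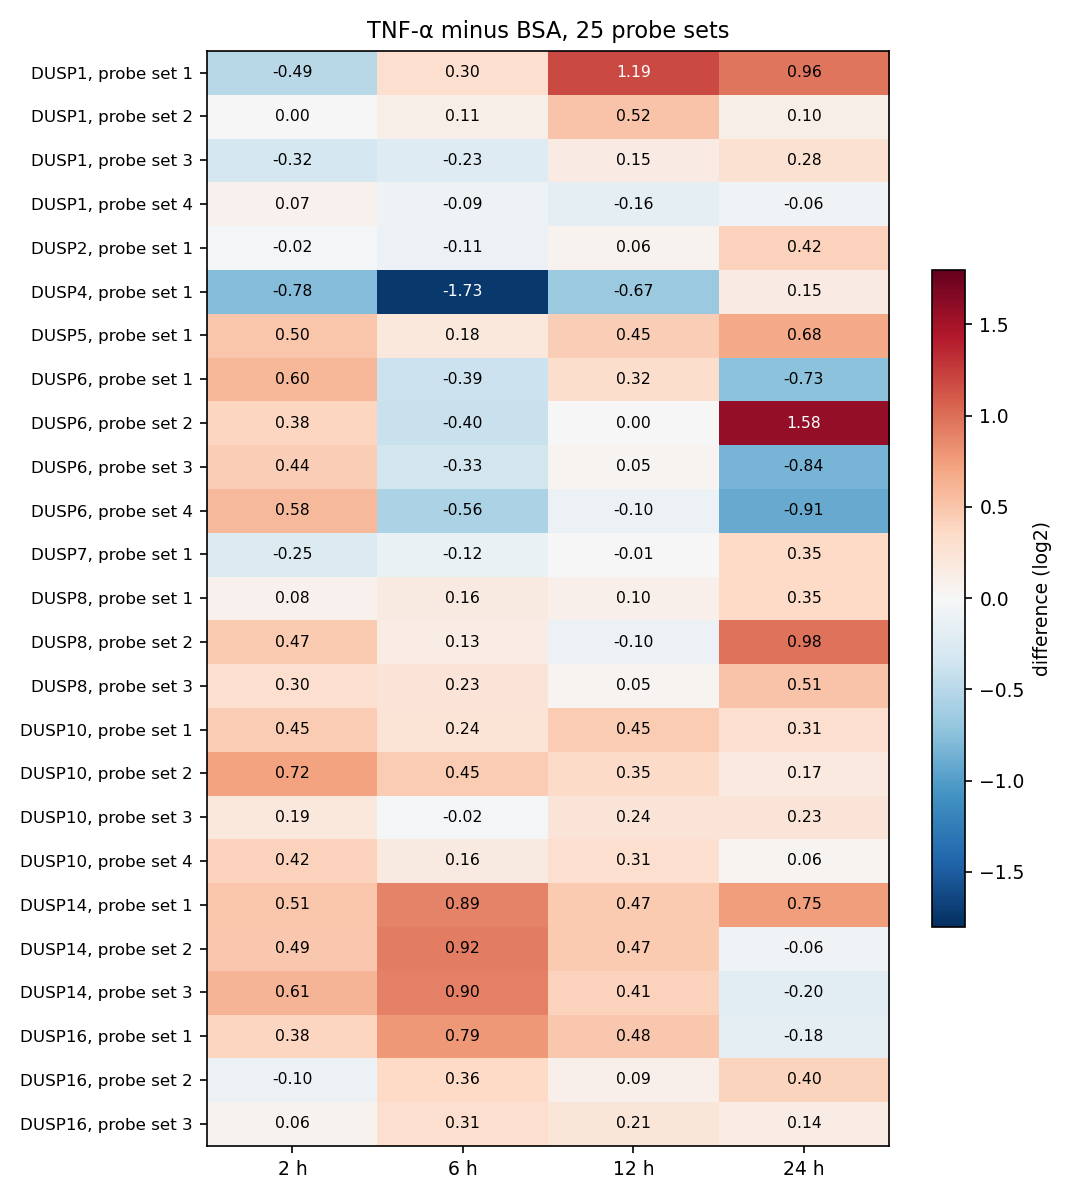
Difference of TNF-α minus BSA (log2, 1 array each) for the 25 probe sets in rows, numbered within a gene by mean level, and the 4 times in columns, with red for higher and blue for lower in TNF-α. The 3 probe sets of DUSP14 read alike at 2, 6 and 12 h, DUSP4 is lowest at 6 h with −1.73, and at 24 h the probe sets of DUSP6 run from −0.91 to 1.58.

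Of the 25 probe sets 18, 15, 20 and 18 were higher in TNF-α at 2, 6, 12 and 24 h. Several of these probe sets belong to the same gene, and no share over all probe sets was computed. By gene, with the brightest probe set of each, 6, 6, 8 and 8 of the 10 members were higher. The shares of all genes that were higher in TNF-α were 42.9%, 47.0%, 49.1% and 71.0%.

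Beside the 0 members past the adjusted threshold, more had an unadjusted p under 0.05 with limma. Over the 4 times 0.0164% of all genes rose and 0% fell at the adjusted threshold. At the unadjusted one 3 members were higher (DUSP5, DUSP10 and DUSP14; 4.12% of all genes) and 0 lower (3.39%). From 2 to 12 h 0.318% of all genes rose and 0.0493% fell at the adjusted threshold, and 4 members were higher (DUSP5, DUSP10, DUSP14 and DUSP16; 4.89% of all genes) and 1 lower (DUSP4; 9.12%) at the unadjusted one. With the 2 h pair left out, the 4 arrays of 6 and 12 h gave 3 members past the adjusted threshold: DUSP14 rose by 0.68 ± 0.13 (adjusted p = 0.0194), DUSP16 rose by 0.63 ± 0.12 (0.0189) and DUSP4 fell, with a difference of −1.20 ± 0.21 (0.0137). In that fit, which had 1 residual degree of freedom per gene, 2.79% of all genes rose and 3.21% fell. The call of DUSP16 is for its brightest probe set. At 6 and 12 h its other probe sets differed by 0.36 and 0.09 (11752504_a_at) and by 0.31 and 0.21 (11723316_a_at). Without the 6 h or the 12 h pair 0 members passed.

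**Figure D4:**
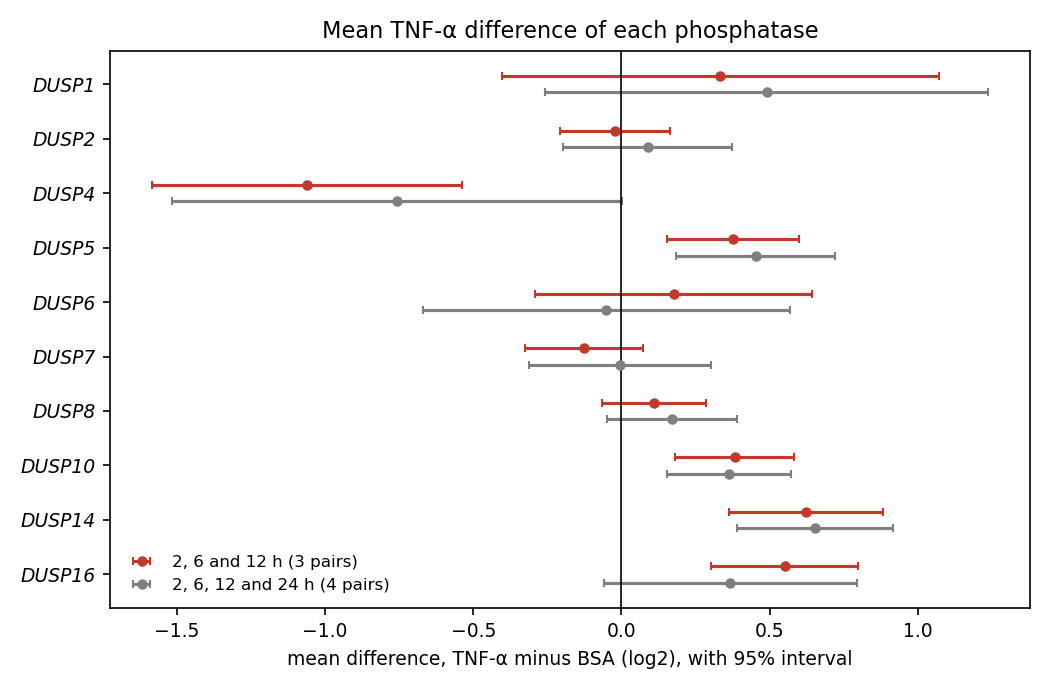
Mean difference of TNF-α minus BSA (log2) for each phosphatase, as points with the 95% interval of the limma fit, from 2 to 12 h in red (3 pairs of arrays) and over the 4 times in grey (4 pairs). From 2 to 12 h the intervals of DUSP5, DUSP10, DUSP14 and DUSP16 lie above 0 and that of DUSP4 below 0, before adjustment over 18239 genes.

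How did the control arm drift? Against 2 h, 2 of 10 members in BSA were at least 2-fold lower at 6 h (DUSP5 and DUSP6; 0.965% of all genes) and 0 higher (0.477%). At 12 h 4 were lower (DUSP1, DUSP4, DUSP5 and DUSP6; 0.345% of all genes) and 0 higher (0.175%). For DUSP1 this held for the brightest probe set only, and the others changed by −0.48, −0.48 and 0.03. At 24 h 1 was lower (DUSP1; 1.83%) and 1 higher (DUSP6; 2.54%). In TNF-α 3 were at least 2-fold lower at 6 h (DUSP4, DUSP5 and DUSP6; 1.1% of all genes) and 0 higher (1.12%). At 12 h 2 were lower there (DUSP5 and DUSP6; 1.22%) and 0 higher (1.17%). At 24 h 0 were lower (7.29%) and 0 higher (11.4%). The members' median change in BSA was −0.19, −0.46 and −0.23 at 6, 12 and 24 h, against −0.002, −0.03 and −0.03 over all genes. These comparisons share the 2 h array of their arm, so a departure of that array would move all of them.

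**Figure D5:**
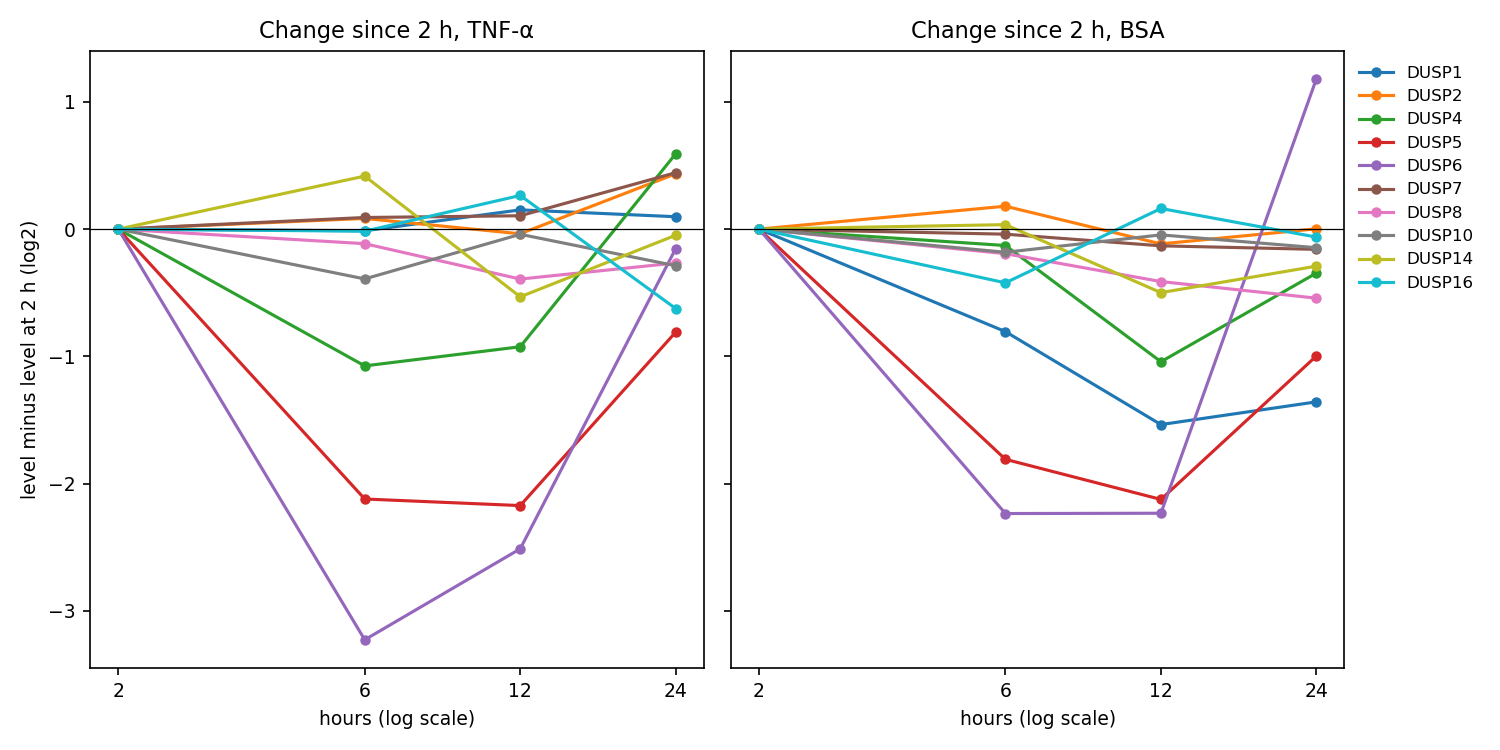
Change of the brightest probe set since 2 h of the same arm (log2, 1 array per point) for the 10 phosphatases at 2, 6, 12 and 24 h (log scale), TNF-α on the left and BSA on the right. DUSP5 and DUSP6 lie at or below −1.81 at 6 and 12 h in both arms, and DUSP1 stays between −0.013 and 0.15 in TNF-α while it reaches −1.54 in BSA.

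In BSA the drift per doubling of time had its smallest p for DUSP1 and DUSP8. The BSA slope per doubling of time was −0.42 ± 0.08 for DUSP1 and −0.16 ± 0.04 for DUSP8 (SE), with unadjusted p of 0.00207 and 0.0123. Neither passed with limma (adjusted p = 0.985 each), and the mean of the probe sets gave smaller slopes, −0.21 for DUSP1 and −0.056 for DUSP8. With limma 0% of all genes passed in either direction. At an unadjusted p under 0.05 the slope was negative for these 2 members (2.23% of all genes) and positive for 0 (1.35%). The difference of the slopes between TNF-α and BSA passed for 0 members and for 0% of all genes in either direction. It had an unadjusted p under 0.05 for DUSP1 and DUSP7, both more positive in TNF-α (2.71% of all genes), and for 0 in the other direction (0.987%). These fits include the TNF-α array at 24 h, where the DUSP7 difference was 0.35, against −0.25, −0.12 and −0.01 at 2, 6 and 12 h.

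Promoter sequences from RefSeq (GRCh38.p14) were read for the 8 members the table lists, all but DUSP4 and DUSP5. The 250 bases before the start were searched on both strands for the cAMP response element TGACGTCA, its core TGACG, the AP-1 site TGANTCA, the TATA box TATAAA, the ETS site CCGGAAG, the NF-κB site and the CArG box. DUSP1 and DUSP8 held the full cAMP response element, which 1.65% of the 35116 listed promoters hold, and DUSP1 also held a TATA box (10.7% of promoters). The core TGACG was found in the same 2 members, 4 matches in each (21.2% of promoters). Those of DUSP8 lay inside its full elements, while DUSP1 also held matches outside its element. DUSP7 had 1 match to the NF-κB site (9.96% of promoters). None of the 8 members searched matched the AP-1 site (6.57%), the ETS site (8.52%) or the CArG box (1.16%) in this window. Shown 5′ to 3′ are DUSP1 and DUSP8, the searched members with the element, and DUSP6, the member with the widest range and no match. Capitals mark the matches, the positions are chr5:172771196-172771445, chr11:1572272-1572521 and chr12:89352502-89352751, and all 3 lie on the minus strand.
DUSP1: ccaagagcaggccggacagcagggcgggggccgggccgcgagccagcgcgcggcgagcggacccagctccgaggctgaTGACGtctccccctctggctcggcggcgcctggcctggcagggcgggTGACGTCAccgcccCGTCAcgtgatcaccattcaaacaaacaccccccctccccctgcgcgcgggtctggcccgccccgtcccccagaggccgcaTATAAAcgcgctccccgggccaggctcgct
DUSP8: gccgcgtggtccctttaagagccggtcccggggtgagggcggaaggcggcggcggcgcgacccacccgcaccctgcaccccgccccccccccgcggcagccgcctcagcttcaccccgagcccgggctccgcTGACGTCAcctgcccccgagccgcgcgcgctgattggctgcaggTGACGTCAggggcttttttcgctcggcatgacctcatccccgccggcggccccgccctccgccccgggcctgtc
DUSP6: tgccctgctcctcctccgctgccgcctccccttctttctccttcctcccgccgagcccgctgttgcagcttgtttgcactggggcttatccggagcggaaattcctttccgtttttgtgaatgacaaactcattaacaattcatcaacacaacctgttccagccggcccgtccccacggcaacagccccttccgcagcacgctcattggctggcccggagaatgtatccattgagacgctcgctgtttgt
The element of DUSP1 ends 118 bases before the start, and those of DUSP8 end 111 and 67 bases before it. A match describes the letters and is no measurement of binding.

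Outside the 10 members, most transcripts of the pathway did not pass. Of 8 measured MAP kinases, 6 MAP kinase kinases, 15 other dual-specificity phosphatases and 8 other phosphatases of MAP kinases, 0 passed in either fit. Of all genes 0.318% rose and 0.0493% fell from 2 to 12 h, and 0.0164% and 0% did over the 4 times. At such shares a count of 0 in lists this short cannot set them apart from all genes. From 2 to 12 h their median differences were −0.10, −0.02, −0.05 and 0.02, against 0.25 for the 10 members and −0.01 over all genes. The largest differences in these lists did not pass: MAP2K6, a kinase that activates p38, read 6.00, 4.85, 4.85 and 4.89 in TNF-α and 6.08, 5.69, 6.26 and 5.45 in BSA. MAP2K3, another activator of p38, read 6.02, 6.87, 5.80 and 4.34 in TNF-α and 5.13, 5.96, 5.35 and 4.40 in BSA. Their mean differences from 2 to 12 h were −0.78 (adjusted p = 0.268) and 0.75 (0.105).

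The list genes that passed did so from 2 to 12 h, where 0.318% of all genes rose, and lay in the 3 lists below. The lists were chosen with earlier results of these data known, so the counts do not set 1 level of the pathway against another. Of 10 measured MAP3 kinases and RAF kinases 1 rose from 2 to 12 h, MAP3K14, the kinase NIK of the alternative NF-κB pathway. It read 7.68, 8.27, 6.96 and 6.28 in TNF-α and 6.37, 6.58, 5.79 and 5.87 in BSA, a difference of 1.39 ± 0.12 (SE, 3 pairs; adjusted p = 0.0210). Of 12 transcription factors that MAP kinases regulate 2 rose, JUN by 1.57 ± 0.07 (adjusted p = 0.00305) and ATF3 by 1.15 ± 0.11 (0.0305). At 24 h, on the TNF-α array that stood apart, both read the other way: JUN 6.08 in TNF-α against 7.28 in BSA, and ATF3 5.10 against 7.05. Of 18 feedback and output genes of ERK 2 rose, IER3 by 2.11 ± 0.23 (adjusted p = 0.0424) and FOSL1, an AP-1 subunit, by 0.85 ± 0.09 (0.0438). Over the 4 times 0 members of these 3 lists passed.

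The output genes of ERK varied in their course over time. Of the 18, 4 were at least 2-fold lower and 1 higher in BSA at 6 h than at 2 h (0.965% and 0.477% of all genes). At 12 h 4 were lower and 0 higher (0.345% and 0.175%). The list's median change was 0.08 at 6 h and −0.06 at 12 h. EGR1, a transcription factor induced by ERK and chosen here after its values were seen, read 9.33, 5.20, 5.15 and 8.62 in TNF-α and 10.35, 5.35, 5.59 and 9.46 in BSA. Its 2 h and 24 h arrays lay above its 6 h and 12 h arrays in both arms. IER3, another early response gene, read 10.88, 8.57, 6.70 and 7.45 in TNF-α and 8.32, 6.19, 5.32 and 7.46 in BSA, so in TNF-α its 24 h array lay below its 6 h array. ETV5, an ETS factor, was 1.06 above 2 h at 6 h in BSA.

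Which genes had time courses most like those of the members, with the TNF-α array of 24 h set aside (7 arrays)? Likeness was the mean absolute difference between profiles centred on their own mean, and it describes these arrays only; neighbours can move less than the member. For DUSP5, with a range of 2.62, the nearest of all genes were CSRNP1 (0.17), ZNF283 (0.21) and IER2, an immediate early gene (0.23). For DUSP6, with a range of 3.81, they were KLHL24 (0.47), ULBP1 (0.49) and STC2 (0.54), with ranges of 2.44, 2.90 and 2.56. DUSP4, with a range of 1.86, was nearest to KLF2 (0.19), JDP2 (0.22) and ZNF708 (0.22). DUSP1, with a range of 1.54, was nearest to C20orf96 (0.22), RHEBL1 (0.22) and IER5 (0.23), whose own ranges were 0.66, 1.20 and 0.96.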

How the data were processed

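Expression was measured on 8 Affymetrix arrays (3′ IVT labelling of 10 ng of total RNA). Per the submitters' processing notes the deposited values were made with RMA, and they are log2 levels for 49386 probe sets. The program that ran RMA is not given in the sources used here. Probe sets were named by the platform annotation with symbols updated through Entrez identifiers (45172 probe sets matched): 45253 had 1 symbol, 1327 had several, 2713 had none listed and 93 were controls. Each of the 18239 genes was represented by its brightest probe set on average. TNF-α was compared with BSA by limma 3.58.1 in R 4.3.3 (two-sided, time as a factor, 3 residual degrees of freedom, or 2 from 2 to 12 h), with Benjamini-Hochberg adjustment over all genes and a threshold of 0.05. Slopes came from treatment, log2 hours and their product. At single times differences were counted past 2-fold with no test. With 1 array per treatment and time, p-values reflect only how these arrays scatter, and the number of arrays limits the precision. The code was tested on simulated data. A test of the time factor in both arms was added after the data were seen. Members and lists were chosen with earlier results of these data known. Named besides the members are list genes past the threshold, MAP2K6 and MAP2K3 from among the 3 largest differences of a list, EGR1 and ETV5, chosen after their values were seen, and the 3 nearest profiles of the 4 members with the widest range.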

Additional observations from a re-analysis of the deposited data

How the results depend on the processing

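Limits: each condition had 1 array, so array noise and treatment cannot be told apart at a single time. The 24 h difference rests on an array with a GAPDH gap of 6.28. Levels under the array median (10 of 25 probe sets on all 8 arrays) bound small changes poorly. The counts of members past the threshold were 0 under all alternatives run for the TNF-α effect over the 4 times, its dependence on time and the BSA slope. From 2 to 12 h the count ranged from 0 to 3 when 1 pair was left out and was 0 under the other alternatives.

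The count of members for time in both arms, 2 in each form, was 0 over the 4 times with every probe set tested on its own and 0 with quantile normalisation again, and ranged from 0 to 2 when 1 pair was left out, as it did from 2 to 12 h, where it was 3 with an intensity trend and 2 under the other alternatives. The cause was not tested, though fewer arrays enter the fits without a pair. With the mean of probe sets 0 members were at least 2-fold higher at 12 h and 0 at least 2-fold lower in BSA at 24 h. The count of members at least 2-fold lower in BSA at 12 h ranged from 3 to 4 over the alternatives. With quantile normalisation again 1 was higher at 24 h and 2 were lower in BSA at 24 h, and with every probe set 1 was higher at 24 h.

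Values that changed sign were small or uncalled. Array weights, which in the slope fit stopped before full convergence, gave −0.014 for DUSP2 and 0.13 for DUSP6 over the 4 times, and −0.27, 0.055 and −0.16 for the time dependence of DUSP5, DUSP10 and DUSP14. The mean of probe sets gave −0.11 for the time dependence of DUSP14 and −0.014 for the BSA slope of DUSP16. With 1 pair left out, the difference over the 4 times ranged from −0.021 to 0.16 for DUSP2, −0.27 to 0.18 for DUSP6 and −0.13 to 0.075 for DUSP7. From 2 to 12 h it ranged from −0.10 to 0.75 for DUSP1, −0.063 to 0.024 for DUSP2 and −0.035 to 0.46 for DUSP6. The time dependence ranged from −0.013 to 0.94 for DUSP4, −0.035 to 0.25 for DUSP5, −0.036 to 0.034 for DUSP10, −0.069 to 0.062 for DUSP14 and −0.48 to 0.059 for DUSP16. The BSA slope ranged from −0.85 to 0.41 for DUSP5, −0.91 to 1.71 for DUSP6, −0.038 to 0.018 for DUSP10 and −0.0090 to 0.18 for DUSP16.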
